A study of Rattus norvegicus with 4 samples.

Results

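In cultured rat heart muscle cells, 87 features were lower with phenylephrine both under a control siRNA and under an siRNA that targets Chaer, a long noncoding RNA. The cells were neonatal rat ventricular myocytes, the beating muscle cells of the heart ventricle, taken from 2-day-old Sprague Dawley rats and kept in primary culture. The 4 groups were a negative control siRNA without phenylephrine (siNeg), a Chaer siRNA without phenylephrine (siChaer), the control siRNA with 50 µM phenylephrine (siNeg PE) and the Chaer siRNA with 50 µM phenylephrine (siChaer PE). Every group had been transfected for 6 h, so even the control cells carried an siRNA, and the treated cells were collected 48 h after the medium change. Each group was 1 library, so no value has an error between cultures, no test was run, and every interval given is a 95% interval of counting error alone.

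Phenylephrine is an agonist of α1-adrenergic receptors, which signal through Gq proteins, phospholipase C and calcium. In cultured neonatal myocytes it is a standard stimulus of hypertrophy, the growth of muscle cells in size, during which genes of the fetal heart programme are known to rise and genes of the mature muscle cell to fall. Chaer is a long noncoding RNA known for its part in cardiac hypertrophy, where it binds a subunit of the Polycomb repressive complex and limits its silencing of genes. The features described here are those that were lower with the stimulus under both siRNAs.

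The members were chosen by the measured ratios themselves. A feature had to have a mean of at least 1 RPKM (reads counted per kilobase of the gene model and scaled to depth) over the 4 libraries, which 12226 of the 26406 listed features had. It also had to have a log2 ratio of (RPKM + 1) of at most -0.8 for siNeg PE over siNeg and for siChaer PE over siChaer. The mean of its log2 ratios for Chaer siRNA, taken without and with phenylephrine, had to lie between -0.9 and 0.9. Of the features tested, 185 met the limit under control siRNA, 250 under Chaer siRNA and 100 under both. The siRNA limit removed 13 of these 100, of which 12 were lower and 1 was higher with Chaer siRNA, and left the 87. Because these ratios made the choice, the fall of the members with phenylephrine is a description and is not a finding.

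None of the 87 members carried a gene symbol. The files give them as Ensembl identifiers, and the RefSeq table at hand (assembly GRCr8) holds 0 of them. What the genes encode is therefore not stated, and no sequence is shown. Only the 2 members with the lowest mean phenylephrine ratio are given by identifier. For the same reason the lists of pathways and of cell type markers could not be applied, and neither the labelled cell type nor the level of Chaer was checked. In a culture sequenced in bulk, fewer cells of a type and less RNA per cell cannot be told apart.

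The libraries held between 33944988 and 39155363 reads in listed features. The members took a small part of them, 0.397% in siNeg and 0.395% in siChaer, and this part was 0.182% in siNeg PE and 0.155% in siChaer PE. In reads, the members held 140429 in siNeg, 152950 in siChaer, 61786 in siNeg PE and 60851 in siChaer PE. The summed share was thus close to equal in the untreated libraries and lower in both treated ones.

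ENSRNOG00000020263 had the lowest mean phenylephrine ratio of all 12226 features tested. Its level was 58.6 RPKM (57.3 to 60.0) in siNeg, 57.9 RPKM (56.6 to 59.1) in siChaer, 24.4 RPKM (23.5 to 25.3) in siNeg PE and 7.97 RPKM (7.52 to 8.45) in siChaer PE. The untreated libraries were within each other's counting intervals, both treated libraries were far below them, and siChaer PE was the lowest of the 4. Phenylephrine went with a level 2.40 times lower (2.30 to 2.51) in cells given the control siRNA. In cells given the Chaer siRNA the level was 7.26 times lower (6.82 to 7.72). On the log2 (RPKM + 1) scale these ratios were -1.23 and -2.71, the 25th lowest of all tested features with control siRNA and the lowest with Chaer siRNA. The Chaer siRNA ratio of the same feature was -0.02 without phenylephrine and -1.50 with it. These values rested on 7720, 8318, 3067 and 1159 reads in a gene model of 3559 bp, so counting error was small.

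ENSRNOG00000018018, which came next, had more nearly equal ratios under both siRNAs. Its level was 43.3 RPKM (42.0 to 44.7) in siNeg, 32.4 RPKM (31.2 to 33.5) in siChaer, 10.9 RPKM (10.2 to 11.7) in siNeg PE and 7.24 RPKM (6.71 to 7.80) in siChaer PE. The treated libraries were again both below the untreated ones, and within each condition the Chaer siRNA library was the lower. Its level fell 3.96 times (3.68 to 4.26) from siNeg to siNeg PE and 4.47 times (4.11 to 4.86) from siChaer to siChaer PE. Its log2 (RPKM + 1) ratios were -1.89 and -2.02, the 4th and the 2nd lowest of all tested features. The Chaer siRNA ratios were -0.41 without and -0.53 with phenylephrine, which differ far less than those of ENSRNOG00000020263.

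**Figure D1:**
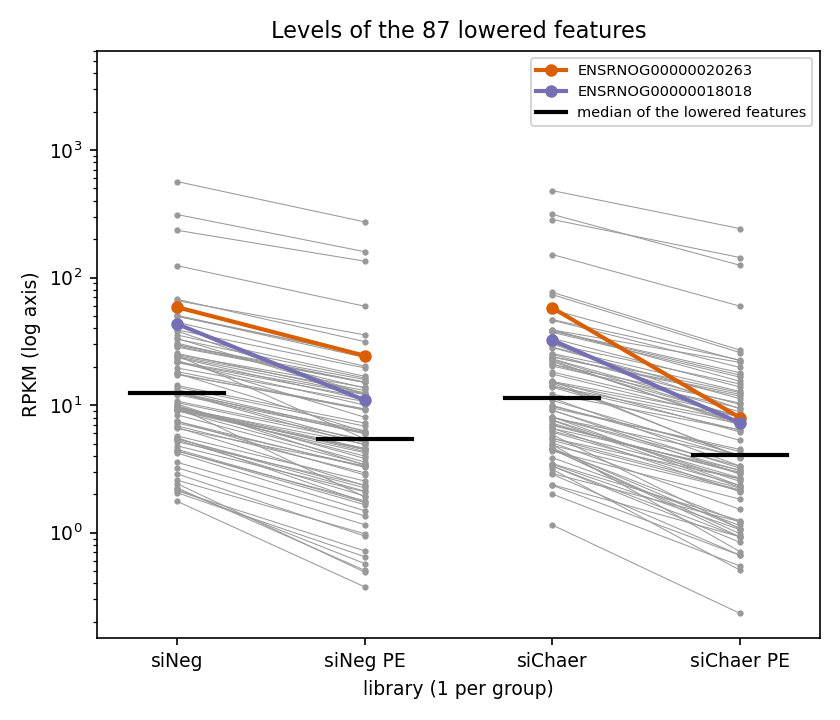
Level of each of the 87 lowered features in the 4 libraries, in RPKM on a log axis, with a line joining the library without and the library with phenylephrine of the same siRNA; black bars are medians over the features and there is 1 library per group. Medians are 12.4 RPKM in siNeg and 11.4 RPKM in siChaer against 5.38 RPKM in siNeg PE and 4.05 RPKM in siChaer PE, and the 2 coloured features are those with the lowest mean phenylephrine ratio.

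Across the members, levels spanned a wide range, and the untreated libraries were above the treated ones throughout. In siNeg they ran from 1.77 to 566 RPKM, with a median of 12.4, and in siChaer from 1.15 to 481 RPKM, with a median of 11.4. In siNeg PE they ran from 0.376 to 273 RPKM, with a median of 5.38, and in siChaer PE from 0.233 to 242 RPKM, with a median of 4.05. In all 87 members both untreated libraries were above both treated ones, which held for 28.3% of all features tested, but the rule used these ratios and fixes most of this order. The lower untreated level was between 1.04 and 3.41 times the higher treated level, with a median of 1.84. Levels before treatment were like those of other features, since the median over all tested features was 11.5 RPKM in siNeg and 11.5 RPKM in siChaer.

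The most abundant member had 566 RPKM in siNeg, 481 RPKM in siChaer, 273 RPKM in siNeg PE and 242 RPKM in siChaer PE. Its gene model of 109 bp was the shortest among the members, and the RPKM of so short a model depends strongly on how reads at its edges were counted. The next had 312, 285, 160 and 144 RPKM in the same order over a model of 804 bp. The third had 235, 313, 134 and 125 RPKM, so that its siChaer library was the highest of the 4. These 3 were the only members with a mean of at least 100 RPKM. Their phenylephrine log2 ratios were -1.05, -0.96 and -0.80 with control siRNA and -0.99, -0.99 and -1.32 with Chaer siRNA. The third had the weakest fall of all 87 members with control siRNA.

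The fall was moderate for most members. With control siRNA the log2 (RPKM + 1) ratio had a median of -0.98, a lower quartile of -1.08 and a lowest value of -1.99. With Chaer siRNA the median was -1.16, the lower quartile was -1.32 and the lowest value was -2.71. Over all tested features the medians were -0.07 and -0.10, so the members' medians lay 0.91 and 1.06 below them on the log2 scale. Without the pseudocount, members were between 1.75 and 5.08 times lower with control siRNA, with a median of 2.19, and between 1.80 and 7.26 times lower with Chaer siRNA, with a median of 2.54.

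Of the 87 members, 40 were at least 2-fold lower on the log2 (RPKM + 1) scale with control siRNA, 61 with Chaer siRNA and 30 with both. The same size was reached by 0.605%, 0.875% and 0.303% of all tested features, and nothing is read from these shares because the rule used the same ratios. The counts also depended on the measure, and at other settings the share of all tested features was not counted. With control siRNA TMM gave 23, median-ratio scaling gave 25, and pseudocounts of 0.1 and 5 gave 63 and 9, while with Chaer siRNA a pseudocount of 5 gave 18. The counting interval of the RPKM ratio lay below 1 under both siRNAs for all 87 members, as the rule makes likely, and for 25.6% of the 12223 tested features with reads in every library. It lay wholly past 1.74 times lower in RPKM for 70 members with control siRNA, 80 with Chaer siRNA and 66 with both. The limit of the rule is this fold in RPKM + 1 and asks a larger fall in RPKM of weakly expressed members. These counts therefore do not give the number of members that clear that limit. The same counts were not made over all tested features and rest on ratios that the rule used, so nothing is read from them. Read numbers were lowest with phenylephrine, where 13 members in siNeg PE and 15 in siChaer PE had under 100 reads, against 2 in each untreated library.

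**Figure D2:**
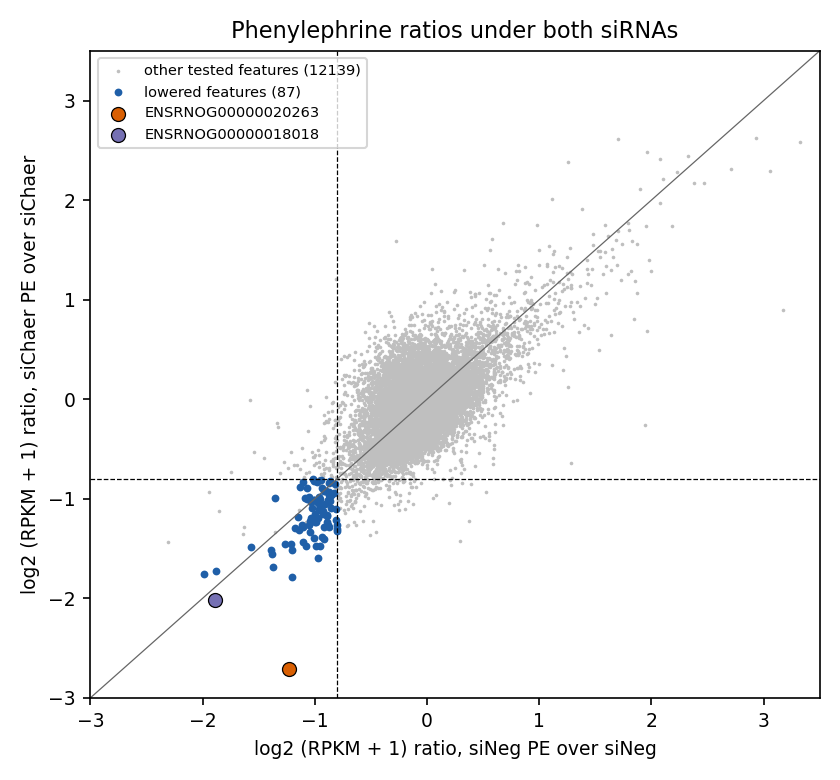
Log2 (RPKM + 1) ratio with phenylephrine under control siRNA (x axis) and under Chaer siRNA (y axis) for the 12226 features tested, with the 87 lowered features in blue, the limits of -0.8 dashed and equal ratios as a solid line; grey points past both limits are the 13 features that the siRNA limit removed. For 31 of the 87 lowered features the weaker ratio is within 0.1 of the limit, and ENSRNOG00000020263 stands apart at -1.23 and -2.71.

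The edge of the set is crowded. For 31 of the 87 members the weaker of the phenylephrine ratios was within 0.1 of the limit, and 41 features that met the other conditions lay within 0.1 outside it. The member nearest the limit had 2.19 RPKM in siNeg, 1.15 in siChaer, 0.573 in siNeg PE and 0.233 in siChaer PE, with ratios of -1.02 and -0.8015. The nearest feature outside had 26.5, 47.9, 14.8 and 19.4 RPKM in that order, with ratios of -0.7991 and -1.26. At the siRNA limit, the member with the mean Chaer siRNA ratio farthest from 0 had a ratio of -0.85, and the nearest excluded feature one of -0.92. The members are therefore a slice of a continuous range of values.

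More members had the lower phenylephrine ratio under Chaer siRNA than under control siRNA. The difference, Chaer siRNA minus control siRNA on the log2 (RPKM + 1) scale, was below 0 in 68 of the 87 members and in 58.5% of all tested features. Its median was -0.15 over the members and -0.06 over all tested features, and with a pseudocount of 5 these medians were -0.07 and -0.04. Its interquartile range was -0.28 to -0.01 over the members and -0.23 to 0.16 over all tested features. Below the median of all features lay 59 members, 67.8%. Both ratios that make up the difference were part of the rule and their spread over all features was 0.35 (SD) with control siRNA and 0.38 with Chaer siRNA, so this count is a description.

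On log2 RPKM without a pseudocount, the median difference over the members was -0.19. The counting interval held 0 for 53 members, lay below 0 for 33, 37.9%, and above 0 for 1, 1.15%. Over the 12223 tested features with reads in every library, it lay below 0 for 31.8% and above 0 for 20.9%. The differences thus lean below 0 over all features too, and these counts describe ratios that the rule used. ENSRNOG00000020263 had the lowest difference of the members at -1.59 (-1.70 to -1.49), and that of ENSRNOG00000018018 was -0.17 (-0.33 to -0.01). On the (RPKM + 1) scale the difference of ENSRNOG00000020263 was -1.48, the 6th lowest of all tested features, while the next lowest among the members was -0.62. On log2 RPKM the next lowest member was at -0.95 (-1.25 to -0.64), a smaller gap. ENSRNOG00000020263 was the lowest of the members on both scales. These intervals leave out variation between cultures, and whether the siRNA or a difference between cultures lies behind the values cannot be told apart with 1 library per group.

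**Figure D3:**
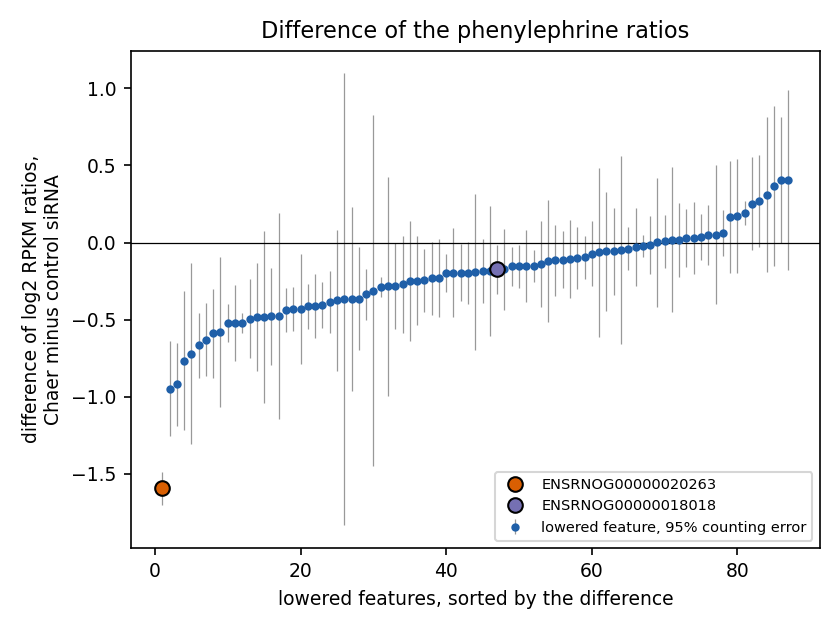
Difference of the phenylephrine log2 RPKM ratios, Chaer siRNA minus control siRNA, for the 87 lowered features sorted by that difference, with bars for the 95% counting error of each. Values are below 0 for 68 features, the bars cross 0 for 53, and ENSRNOG00000020263 is the lowest at -1.59, with the next at -0.95.

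The members were divided in how they stood with Chaer siRNA. The log2 (RPKM + 1) ratio of siChaer over siNeg ran from -0.82 to 0.90 with a median of -0.08, and that of siChaer PE over siNeg PE ran from -1.50 to 0.71 with a median of -0.20. Over all tested features these medians were 0.02 and -0.03. At least 2-fold lower with Chaer siRNA were 0 members without phenylephrine, against 1.11% of all features, and 1 member with it, ENSRNOG00000020263, against 0.851%. At least 2-fold higher were 0 members in either condition, against 1.02% of all features without and 0.998% with phenylephrine. The limit on the mean ratio keeps out most features of such a size, so the low counts follow from the rule.

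Lower with Chaer siRNA in both conditions were 48 members, 55.2%, against 34.3% of all tested features. Higher in both were 27 members, 31.0%, against 32.1%. The signs were equal in 75 of the 87 members, 86.2%, against 66.4% of all features. The siRNA ratios without and with phenylephrine share no library, but each shares its libraries with the phenylephrine ratios that chose the members, so these shares are given as values only. Of the 12 members with opposite signs, 11 were higher with Chaer siRNA in the libraries without phenylephrine and lower in those with it. This split was not counted over all tested features, of which 58.5% had the lower phenylephrine ratio under Chaer siRNA, so nothing is read from it. The 13 features that the siRNA limit removed included 12 that were lower in both conditions, so 60 of the 100 features past both phenylephrine limits were lower with Chaer siRNA in both.

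The phenylephrine ratios of these classes, which were formed after their values were seen, are given as a description. The rule set the same limit on both phenylephrine ratios of every member and so bounds the medians of each class. Nothing is therefore read from how alike these medians are. The 48 members lower with Chaer siRNA in both conditions had median phenylephrine log2 ratios of -1.02 with control and -1.14 with Chaer siRNA. The 27 members higher in both had -0.97 and -1.09. The spread differed, since the lowest ratios were -1.99 and -2.71 among the 48 and -1.20 and -1.79 among the 27. The 12 members with opposite signs had -0.90 and -1.25, a wider gap that the signs themselves bring about, since the difference of the siRNA ratios equals the difference of the phenylephrine ratios. In their mean level, the 48 had a median of 6.59 RPKM, the 27 had 10.5 RPKM and the 12 had 12.0 RPKM.

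**Figure D4:**
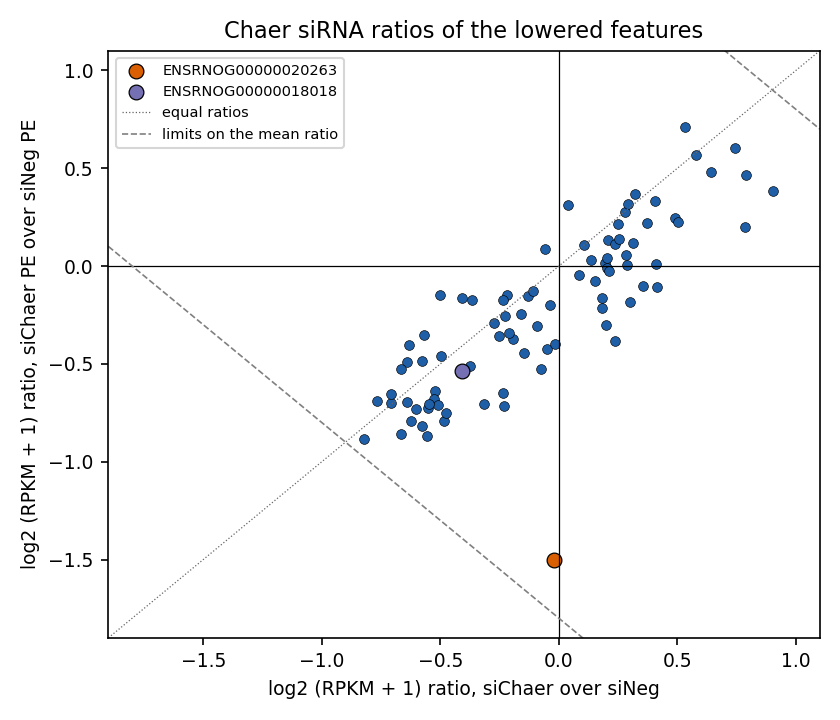
Log2 (RPKM + 1) ratio with Chaer siRNA without phenylephrine (x axis) and with phenylephrine (y axis) for the 87 lowered features; the dotted line marks equal ratios and the dashed lines the limits of -0.9 and 0.9 on their mean. There are 48 features at the lower left, below 0 on both axes, and 27 at the upper right, above 0 on both, and ENSRNOG00000020263 lies at -0.02 and -1.50.

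Abundance and gene length, which the rule did not rank by, were compared with those of all tested features as a description. The mean level over the 4 libraries had a median of 9.31 RPKM among the members and 11.3 RPKM among all tested features. Under 5 RPKM were 26 members, 29.9%, against 27.2% of all tested features. Between 5 and 20 RPKM were 41 members. At least 20 RPKM were 20 members, 23.0%, against 33.1% of all tested features. The fall in treated libraries itself lowers the mean level of a member.

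In RPKM without a pseudocount, the fall differed with level. With control siRNA the median member was 2.70 times lower under 5 RPKM, 2.12 times lower between 5 and 20 RPKM and 2.00 times lower at 20 RPKM or more, and with Chaer siRNA these medians were 3.47, 2.48 and 2.30. On the log2 (RPKM + 1) scale, where the rule sets its limit, the medians with control siRNA were -1.01 for members under 5 RPKM, -0.95 for those between 5 and 20 RPKM and -0.97 for those of at least 20 RPKM. With Chaer siRNA the medians in the same order were -1.13, -1.16 and -1.16. The pseudocount of 1 makes the ratio of a weakly expressed feature smaller than its RPKM ratio, so that such features had to fall further in RPKM to be members, and the rule itself brings about an order of this kind. Gene models of the members had a median length of 1758 bp, against 1953 bp for all tested features. Models under 500 bp were 2 of the 87, 2.30%, against 6.04% of all tested features.

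Features raised by phenylephrine under both siRNAs, found with the mirrored limits, numbered 135 and differed from the lowered ones in several of these descriptions. Their median mean level was 23.5 RPKM, above the 9.31 RPKM of the lowered features. This mean includes the treated libraries, which the rule puts higher for raised and lower for lowered features, so nothing is read from this contrast. Their median gene model was 1896 bp. The difference of their phenylephrine ratios, Chaer minus control siRNA, had a median of -0.05 and was below 0 in 59.3%, close to the share of all tested features. Their phenylephrine log2 ratios had medians of 1.25 with control and 1.20 with Chaer siRNA, where the lowered features had -0.98 and -1.16. Lower with Chaer siRNA in both conditions were 31.9% of the raised features and 55.2% of the lowered ones, against 34.3% of all tested features. Higher in both were 44.4%, 31.0% and 32.1% in the same order. Both sets come from the same 4 libraries and were chosen by the same ratios, so these contrasts were not tested.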

How the data were processed

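RNA was sequenced from 4 libraries of stranded TruSeq preparations from total RNA, per the labels' protocols, 1 library per group. The submitters' processing notes name TopHat2 and rn5. How reads were counted, with which annotation, strand setting or filter, is not stated in the labels or headers, so reads of overlapping or antisense features may not be told apart. For each of 26406 features the deposited tables hold a raw read count and an RPKM value, both computed by the authors, per the file headers. Counts divided by RPKM gave whole gene lengths (within 6.38e-08 bp) and read totals of 35314303 to 40835172 per library.

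Ratios were log2 of (RPKM + 1) over (RPKM + 1), and the members were found by the rule stated in the report, checked on made-up data. The members and the gene lists were chosen with earlier results of these data known. The 20 gene lists were not applied because no member had a symbol and only 1 listed feature did. Members were named by a rule: the 2 lowest by mean phenylephrine ratio. Ratio intervals (95%) were exact binomial, level intervals exact Poisson, and those of the difference combined both ratios' half-widths on the log2 scale. They cover counting error only and treat every read as a separate molecule. Reads carried no molecular identifiers, so this could not be checked. No p-value was computed: the rule used the ratios of both factors, so an additive fit of the 4 libraries would test the choice itself. Alternatives were pseudocounts of 0.1 and 5, other filters and limits, and scaling by TMM (edgeR 4.0.16), median ratio (DESeq2 1.42.0) or a common RPKM sum. Python 3.11.15, pandas 2.3.3 and scipy 1.17.1 were used.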

Additional observations from a re-analysis of the deposited data

How the results depend on the processing

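The number of members depended on the pseudocount and on the limits. It was 87 as chosen, 141 with a pseudocount of 0.1 (80 shared with the 87) and 24 with a pseudocount of 5 (22 shared), because the pseudocount sets how far a weakly expressed feature can fall. Limits of -0.9 and -1 on the phenylephrine ratios gave 56 and 30 members, and -0.7 gave 128. TMM, median-ratio and TPM scaling gave 65, 68 and 73, all among the 87. TMM moved the median phenylephrine log2 ratio of all tested features by 0.08 with control and 0.10 with Chaer siRNA. Over the 87 members, a pseudocount of 5 put the median ratio at -0.67 for control siRNA and -0.75 for Chaer siRNA. Under the other pseudocount and the scalings, these medians stayed between -1.11 and -0.92 with control siRNA and between -1.33 and -1.07 with Chaer siRNA. The filters changed the members themselves, to 61 at a mean RPKM of at least 5 and 89 with no filter. The medians of those members lay within the same ranges. Members at least 2-fold lower ranged from 9 to 63 with control and from 18 to 79 with Chaer siRNA over the pseudocounts and scalings. Shares of all tested features at this size were not counted for the alternative settings. The difference of the ratios was below 0 in 59 to 69 of the 87, with 54.3% to 58.7% of all tested features. Members lower with Chaer siRNA in both conditions numbered 46 to 48. For the 2 named features, 11 of the 30 alternative values moved by more than counting error and none changed sign. No library could be left out, since its group would vanish. No paired analysis was possible because there is only 1 library for every group. Depth limits the 19 members with under 100 reads in at least 1 library.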
